A study of Drosophila melanogaster with 10 samples.

Results

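The arrays described here hold the messenger RNA of control SL2 cells, that is, of the cells in which the transcript under study was not targeted. They are 4 of the 10 arrays of the series, and were chosen by their labels alone. SL2 is an established Drosophila cell line, derived from late embryos, that carries a male karyotype. In 3 of the arrays the cells had received 10 µg of double-stranded RNA (dsRNA) against GST, the control sequence of the RNA interference experiment, and RNA was taken after 7 days. The fourth array came from cells that received no dsRNA. The labels do not say which GST sequence was used, they name no genetic change, and all cells are of the same line. The GST replicates are biological replicates by the series' design text, the condition without dsRNA has 1 array, and so few arrays give each value a limited precision.

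The values are log2 array signals, 1 per probe set (a group of probes for a transcript). Each step of 1 is a 2-fold difference in signal. The lowest value in the table was 2.22, and many probe sets sat at exactly that value, here called the floor. A gene was read from its brightest probe set that names 1 gene, which gave 11983 genes. A gene is said to have signal when it read at least 4 on each of the 4 arrays, and to be at the floor when all 4 values lay within 0.5 of the lowest value. Probe sets differ in how strongly they bind their transcript, so the levels order array signals and not amounts of mRNA. For the same reason a gene at the floor is one whose probe set showed no signal above background, which is not evidence that the transcript was absent. In RNA from a whole culture, fewer cells that use a gene and less RNA per cell cannot be told apart.

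Established insect cell lines keep part of the gene programme of the cells they grew out of. Drosophila blood cells, the haemocytes, are mostly plasmatocytes, which engulf microbes and dying cells and secrete basement membrane. Crystal cells carry the enzymes of melanin formation, and lamellocytes wrap parasites that are too large to engulf. Cells of all kinds also share a core of genes for protein synthesis, energy supply and division.

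Signal was found for 5746 genes, 48.0% of those measured, and 5417 genes (45.2%) were at the floor. The remaining 820 genes lay between, and 356 of them read 4 or more on at least 1 array. Among genes with signal the median of the means was 8.68. The means of 2073 genes lay under 8, those of 3299 between 8 and 12, and those of 374 at 12 or more, which is 3.12% of all genes. Levels varied less between replicates at the bright end. The median SD over the 3 GST arrays was 0.35 for genes with signal under 8, 0.27 between 8 and 12, and 0.23 at 12 or more. Genes with signal had a median annotated length of 2734.5 bp and genes at the floor 1785 bp.

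**Figure D1:**
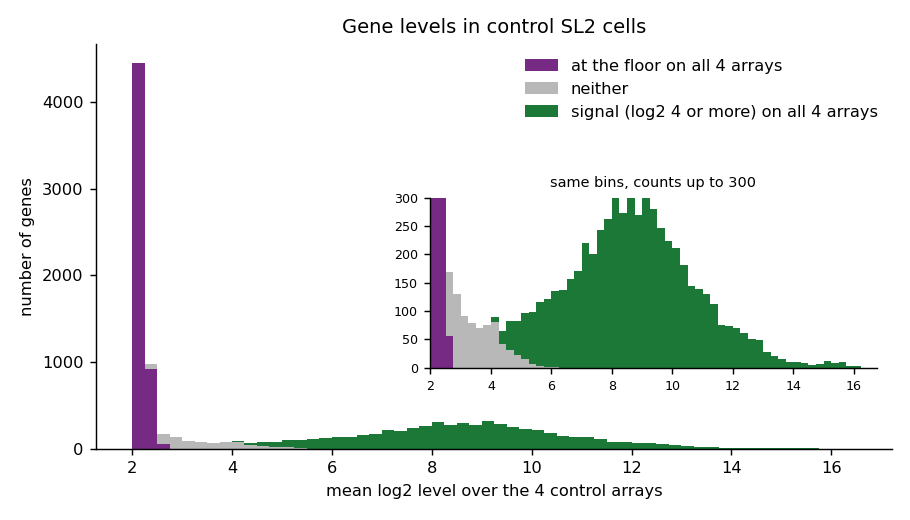
Number of genes (vertical axis) by mean log2 level over the 4 control arrays (horizontal axis, bins of equal width), for genes with signal on all arrays, genes at the floor on all arrays and genes that were neither; the inset shows the same bins with a shortened count axis. The floor holds 5417 genes in a narrow peak next to 2.22, and the 5746 genes with signal form a broad hump around their median of 8.68 with a small shoulder above 15.

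Among the genes measured, the brightest were those of the cytosolic ribosome, the particle that makes proteins. Of the 36 genes with a mean of at least 15, 28 encode cytosolic ribosomal proteins, as do 29 of the 67 with a mean of at least 14. The gene with the highest mean was RpL41, which encodes the smallest protein of the large subunit, at 16.23, 16.13 and 16.13 in the GST dsRNA arrays and 16.23 in the array without dsRNA. RpLP1, a protein of the ribosomal stalk, read 15.98, 15.99 and 16.04 with GST dsRNA and 15.99 without dsRNA. These values lay within 0.11 log2 units of each other on the 4 arrays for both genes.

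Outside the ribosome, the brightest named gene of those measured was Nplp2, which encodes a small secreted protein. It read 16.30, 16.21 and 16.06 in the GST dsRNA arrays and 16.07 in the array without dsRNA. Genes without a probe set naming them alone, such as eEF1alpha1, eEF2, Act5C and alphaTub84B, are not in this ranking. Nor are probe sets without a gene name, of which 126 had a mean of at least 12. The unnamed locus CG5953, chosen after its values were seen, read 16.10, 16.12 and 15.86 with GST dsRNA and 15.97 without dsRNA. The others among the 20 brightest fall into a few kinds of protein. A group serves translation and protein folding: eIF4A, the helicase that opens messenger RNA for the ribosome, had a mean of 15.33, eEF5, an elongation factor, 15.25, Rack1, a scaffold on the small subunit, 14.95, eEF1gamma 14.84, and Nacalpha, which binds emerging polypeptides, 14.59. The chaperones of this group, Hsc70-4 of the cytosol and Hsc70-3 of the endoplasmic reticulum, had means of 15.20 and 14.43.

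Actin regulators formed another set among the 20. Moe, the fly moesin, which ties actin to the plasma membrane, read 14.99, 15.03 and 15.32 in the GST dsRNA arrays and 15.25 in the array without dsRNA. The cofilin gene tsr, whose product severs actin filaments, read 15.05, 14.95 and 15.26 with GST dsRNA and 15.21 without dsRNA. Both differed by less than 0.35 between the lowest and the highest array.

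Matrix and lysosome genes stood beside them. The chains of type IV collagen, the network former of basement membrane, were represented by Col4a1 at 14.86, 14.96 and 14.82 in the GST dsRNA arrays and 14.80 in the array without dsRNA and by vkg at 14.77, 14.72 and 14.52 with GST dsRNA and 14.55 without dsRNA. SPARC, a collagen-binding matrix protein, read 15.24, 15.42 and 14.91 with GST dsRNA and 14.75 without dsRNA. For each of these the 4 arrays lay within 0.67 log2 units of each other. CtsL1, the lysosomal protease cathepsin L, had a mean of 14.95, Vha16-1, the proteolipid of the proton pump that acidifies lysosomes, 14.64, and Idgf2, a secreted chitinase-like growth factor, 14.46. FASN1, a fatty acid synthase, had a mean of 14.94, Tctp, a growth regulator, 14.62, regucalcin 14.55, and jim, a zinc finger transcription factor, 14.96.

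Families recognised by their symbols separated into those read almost completely and those almost silent on the arrays. Signal was found for 69 of 69 mitochondrial ribosomal protein genes (means 6.38 to 11.58), for 8 of 8 subunits of the chaperonin CCT, which folds actin and tubulin (11.89 to 13.27), and for 19 of 20 nucleoporins, the proteins of the nuclear pore (7.64 to 10.30). These counts stand against 48.0% of all genes. Translation initiation factors had signal for 33 of 40 genes, complex I of the respiratory chain for 25 of 32, ATP synthase for 11 of 14, and Rab GTPases, which direct vesicle traffic, for 13 of 17. V-ATPase subunits, at 15 of 31, and complex IV subunits, at 7 of 14, were close to the share over all genes.

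In the families of the ribosome, the proteasome and complex IV, the members at the floor bear the names of gene copies. Cytosolic ribosomal protein genes had signal for 33 of 41 members. The other 8 are RpS28a, RpS10a, RpL22-like, RpL37-2, RpL10Aa, RpS28-like, RpS19b and RpS5b, each of which shares its name stem with another ribosomal protein gene. Not all members named in this way lacked signal: RpL24-like had a mean of 12.82, RpL7-like 12.54 and RpLP0-like 9.77. RpS19b and RpS5b, with means of 3.29 and 3.28, lay between the floor and the limit for signal. For RpS10a, RpL22-like, RpS19b and RpS5b the other gene of the stem was not among the 41, so copy and main gene cannot be compared. The pair RpS28b, with a mean of 15.84, and RpS28a, at the floor on all 4 arrays, shows the contrast. All 13 proteasome genes at the floor (of 40) carry the suffix R or T given to copies of the main subunits, such as Prosalpha3T and Rpt4R. Of the copies with that suffix, Rpt3R had signal at 5.68, 5.19 and 6.75 in the GST dsRNA arrays and 6.77 in the array without dsRNA. The 7 complex IV genes at the floor are likewise copies, among them COX4L and COX7AL, while the 7 with signal, led by COX4 at 13.26, lay between 12.30 and 13.26. Probes of near-identical copies can share signal, and how far they did was not tested.

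Families known for sensing, for the outer cuticle and for digestion were at the floor almost throughout. Odorant receptors had signal for 1 of 56 genes, gustatory receptors for 2 of 56, ionotropic receptors for 1 of 53 and odorant-binding proteins for 2 of 47. Cuticular proteins of the Cpr family had signal for 1 of 66 genes, Tweedle proteins for 1 of 24, Osiris genes for 1 of 24, seminal fluid proteins for 1 of 20, and mucins, Jonah digestive proteases and C-type lectins for 0 of 13, 0 of 13 and 0 of 10. Against the 48.0% of all genes these shares lay between 0% and 5.0%. The 10 members with signal are named here after their values were seen. Gr61a, a sugar receptor of taste neurons, read 7.14, 7.17 and 6.97 in the GST dsRNA arrays and 6.72 in the array without dsRNA, and Ir76a, a member of the ionotropic receptor family, read 7.60, 7.64 and 6.52 with GST dsRNA and 6.38 without dsRNA. Obp44a read 7.46, 7.28 and 4.81 with GST dsRNA and 5.06 without dsRNA, lower on the third GST array and without dsRNA than on the other arrays. Obp99c, the other odorant-binding protein gene with signal, read 6.46, 6.74 and 6.67 with GST dsRNA and 6.81 without dsRNA. The remaining members had means of 4.40 (Or1a), 5.20 (Gr93b), 5.57 (Cpr11A), 5.28 (TwdlG), 5.02 (Osi19) and 6.45 (Acp95EF). With spike-in centring signal was found for 0 odorant receptor, Cpr, Tweedle and Osiris genes and for 1 gustatory receptor gene, and without the third GST array for 2 of 66 Cpr genes. Among neurotransmitter receptors, nAChRbeta3, a subunit of the nicotinic acetylcholine receptor, had signal at 9.86, 9.99 and 9.79 in the GST dsRNA arrays and 9.34 in the array without dsRNA, and 7 of the 9 nicotinic subunits measured were at the floor. Without the second GST array 2 of 9 had signal.

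Detoxification families lay between these extremes. Glutathione S-transferases, which couple toxins to glutathione, had signal for 22 of 34 genes, with GstE6 as the brightest at 12.16. Cytochromes P450, oxidases of hormones and foreign compounds, had signal for 21 of 81 (led by Cyp4e2 at 11.22), and UDP-glycosyltransferases for 7 of 35. Serpins, inhibitors of proteases, had signal for 8 of 27, led by Spn88Ea at 11.41, and scavenger receptors with the Nimrod proteins, which bind microbes and debris, for 8 of 14. Peptidoglycan recognition proteins, sensors of bacterial wall, had signal for 3 of 7, heat shock proteins for 5 of 8 and kinesins, motors on microtubules, for 7 of 9. The shares of the scavenger receptors (57.1%) and of the recognition proteins (42.9%) lie near the 48.0% of all genes.

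**Figure D2:**
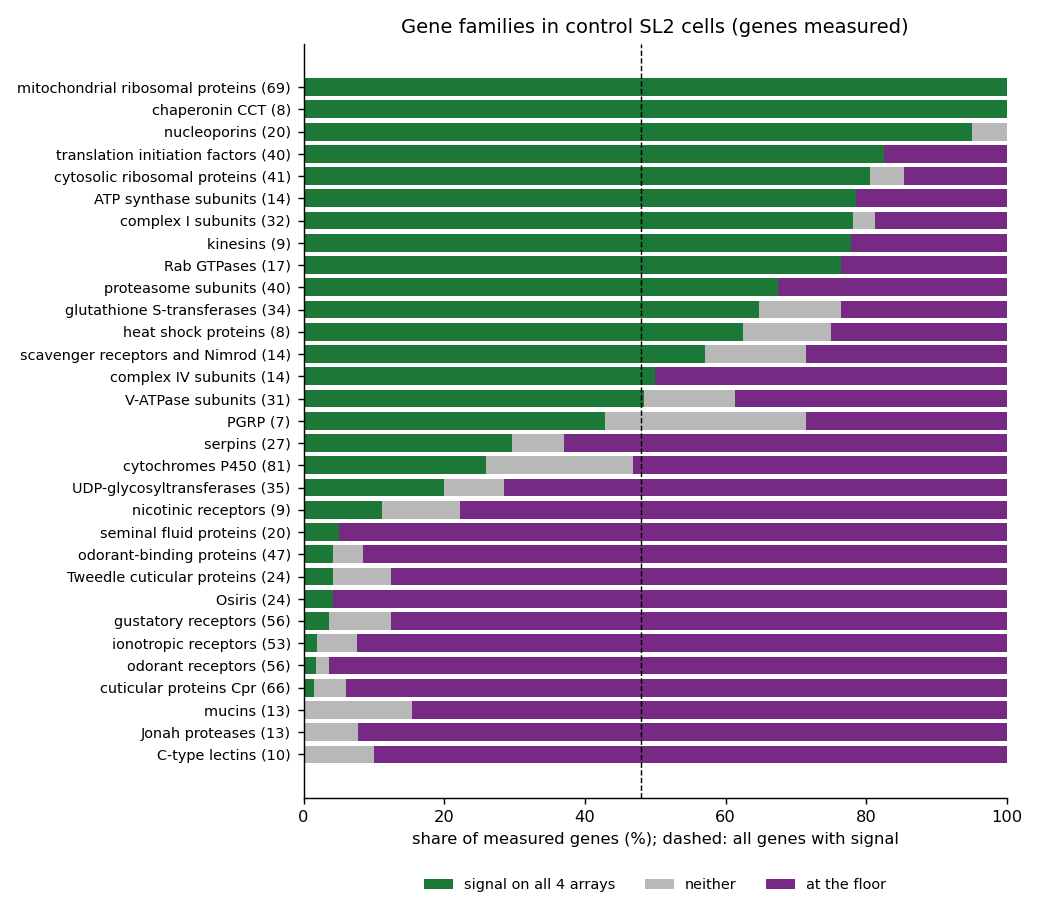
Share of the measured genes of each family (horizontal axis, %) that had signal on all 4 control arrays, were neither or were at the floor; the number of genes measured is beside each name and the dashed line marks the 48.0% of all genes with signal. Mitochondrial ribosomal proteins and CCT fill the axis with signal, and chemosensory, cuticular and digestive families lie almost wholly at the floor.

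Among the marker lists of cell types, the plasmatocyte list had the highest share of genes with signal (78.9%). Of 19 plasmatocyte genes, 15 had signal, with a median of the means of 11.92, against 3.87 for all genes, and 9 had a mean of at least 12. The list and its members were chosen with earlier results of these arrays known. Beside Nplp2, Col4a1 and vkg, the brightest was Pxn, a matrix peroxidase secreted by haemocytes, at 14.08, 14.21 and 14.49 in the GST dsRNA arrays and 14.32 in the array without dsRNA. The clotting protein hemolectin, Hml, named like the haemocyte genes of the next paragraph after its values were seen, read 13.74, 13.78 and 13.65 with GST dsRNA and 13.57 without dsRNA. The values of both genes lay within 0.5 log2 units on the 4 arrays.

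The transcription factor genes of the blood lineage were split. The GATA factor gene srp, needed for all haemocytes, read 12.59, 12.31 and 11.85 in the GST dsRNA arrays and 12.26 in the array without dsRNA, and its partner ush 10.85, 10.71 and 11.16 with GST dsRNA and 11.12 without dsRNA. The genes gcm and gcm2, which direct plasmatocyte fate in the embryo, were at the floor, both reading 2.22 on every array. Receptors for engulfment had signal: eater read 12.67, 12.40 and 12.45 with GST dsRNA and 12.10 without dsRNA, NimC1 9.32, 9.16 and 9.19 with GST dsRNA and 8.97 without dsRNA, Sr-CI 12.14, 11.93 and 12.54 with GST dsRNA and 12.54 without dsRNA, crq 10.65, 9.88 and 9.86 with GST dsRNA and 10.37 without dsRNA and drpr 11.74, 11.37 and 11.53 with GST dsRNA and 11.60 without dsRNA. The surface protein gene He read 13.17, 13.09 and 12.60 with GST dsRNA and 12.60 without dsRNA. Of the scavenger receptor genes of the list, Sr-CII was at the floor and Sr-CIII, at most 2.93, was below the limit for signal.

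Crystal cell genes had signal for 2 of 4 members, a share close to that of all genes, and their levels differed widely between arrays. PPO1, a prophenol oxidase of the melanin pathway, read 7.63, 7.15 and 11.44 in the GST dsRNA arrays and 12.11 in the array without dsRNA, and PPO2 10.13, 10.43 and 12.12 with GST dsRNA and 12.49 without dsRNA. The transcription factor gene lz, which specifies crystal cells, read 2.83, 2.81 and 6.01 with GST dsRNA and 6.86 without dsRNA, so that it passed the limit on only the third GST array and the array without dsRNA. All 3 genes were higher on those 2 arrays than on the first and second GST arrays, with no overlap. That split was not particular to these genes. Of the 5746 genes with signal, 1241 had a range over 1 log2 unit. Of these, 616 were higher and 495 lower on both of those arrays. The gene peb was at the floor.

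Lamellocyte and progenitor lists gave 4 of 6 each (66.7%, against 48.0% of all genes), a difference that was not tested. For lamellocytes, the filamin gene cher had a mean of 11.81, the kinase gene msn 10.81, PPO3 8.33 and the integrin gene Itgbn 7.50, while atilla, the surface marker of mature lamellocytes, was at the floor. For blood progenitors of the lymph gland, zfh1, a zinc finger factor, had a mean of 12.99, Tep4, a thioester protein, 12.18, Ance 10.20 and dome, the receptor of the JAK/STAT pathway, 6.81. The progenitor factor genes kn and Antp were at the floor.

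Other lineages had few markers with signal. Trachea (4 genes), salivary gland (7), photoreceptor (7), gut (10), fat body (8) and neuroblast (9) lists had none on all 4 arrays. At the floor were, for example, the tracheal genes btl, verm, serp and vvl, the glue protein genes Sgs3, Sgs4, Sgs5 and Sgs7, the gut factor genes cad, byn, esg and nub, and the yolk and storage protein genes Lsp2, Yp1, Yp2 and Yp3. The photoreceptor genes trp, trpl, chp and gl and the neuroblast genes ase, dpn, wor and l(1)sc were there too. Of the fat body list, apolpp, the lipoprotein of the haemolymph, named after its values were seen, read 4.55, 3.85 and 5.20 in the GST dsRNA arrays and 4.78 in the array without dsRNA, and missed the limit on the second GST array alone. Without that array 1 of 8 fat body genes has signal. The muscle list had 2 of 12, Zasp52 at a mean of 11.51 and bt at 7.86, proteins of the sarcomere, and twi, Act87E, Mlc1 and Mlc2 were at the floor.

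Neural and epithelial lists held some members with signal among floor values. Of 14 neuron genes 4 had signal: Csp, a synaptic vesicle chaperone, had a mean of 10.75, the calcium channel gene cac 6.79, the RNA-binding protein gene elav 6.77 and the active zone gene brp 6.06. With the mean of all probe sets of a gene, or with spike-in centring, 2 of 14 had signal. A limit of 6 for signal left 1 of 14. At the floor were nSyb, para, fne and Rdl, which encode synaptic and channel proteins and a neuronal RNA-binding protein. Glia had 4 of 7, moody at 10.35, loco at 10.26, Gs2 at 9.05 and nrv2 at 8.52, with the glial master gene repo at the floor along with wrapper and gcm. That share, 57.1%, lies near the 48.0% of all genes. Epithelium had 5 of 10, close to the share of all genes. Its members with signal were the septate junction genes cora (11.94), Nrx-IV (9.77), Gli (8.63) and kune (8.04) and the polarity gene sdt (7.10), and the cadherin gene shg and the epithelial factor gene grh were at the floor.

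The female germline list had 5 of 9, namely aub, a Piwi family protein of transposon silencing, at 9.62, 9.69 and 8.68 in the GST dsRNA arrays and 8.59 in the array without dsRNA, grk at a mean of 8.30, mael at 7.87, AGO3 at 5.64 and zpg at 5.54. That share, 55.6%, also lies near the 48.0% of all genes. At the floor were bam, ovo and orb. The male germline list had 1 of 11, the transcription factor subunit gene mia at 6.08, and can, sa, aly and comr, of the same testis programme, were at the floor. Without the second GST array, and with median centring or quantile normalisation, 2 of 11 had signal. The somatic ovary list had 1 of 9, piwi, at 9.28, 9.15 and 8.91 with GST dsRNA and 9.12 without dsRNA, with tj, Vm32E, slbo and Cp36 at the floor.

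**Figure D3:**
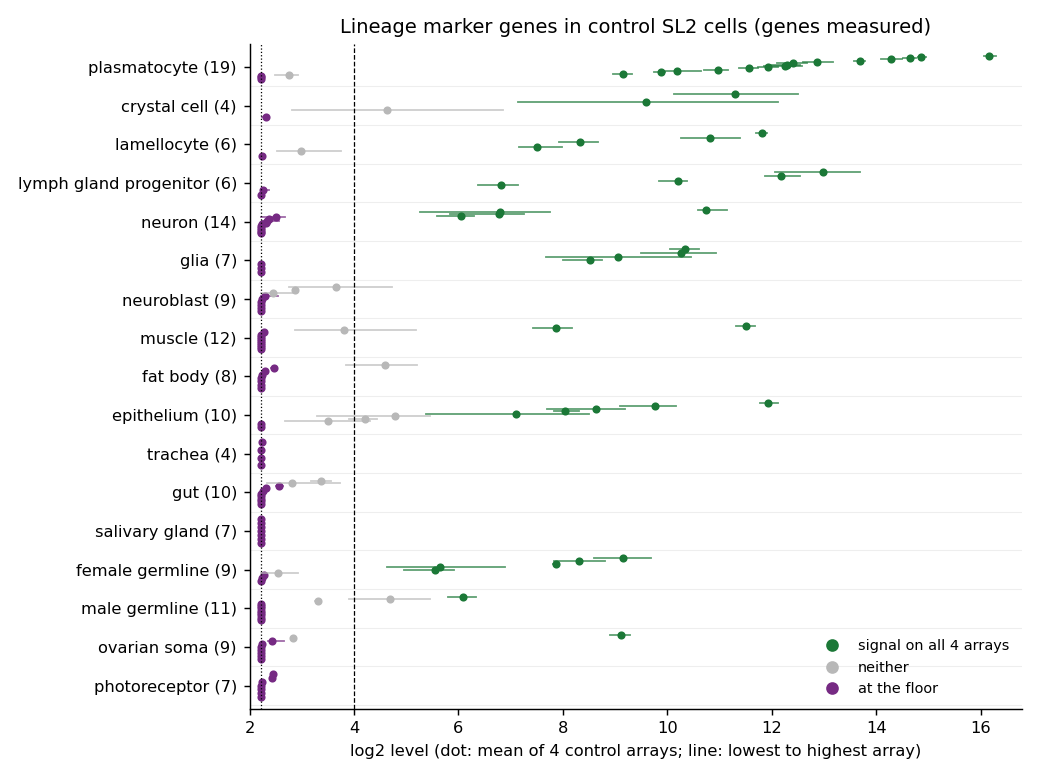
Log2 level of each measured marker gene by list (dots, mean of the 4 control arrays; lines, lowest to highest array), coloured by signal, neither or floor; the dashed line is the limit of 4 for signal and the dotted line the lowest table value, and the number measured is beside each list. Plasmatocyte genes reach furthest right, with 15 of 19 carrying signal, and the trachea, salivary gland and photoreceptor lists lie at the floor.

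Axial patterning genes were almost all at the floor. The 4 Hox genes measured, which give body segments their identity, had no signal: pb read 2.22 on all arrays, Dfd had a mean of 2.39, Scr 2.22 and Antp 2.26. Of 18 segmentation genes 16 were at the floor, bcd, hb, Kr and kni among them. The exception with signal was the pair-rule gene hairy (hry), a repressor that also acts outside segmentation, at 13.69, 13.62 and 14.52 in the GST dsRNA arrays and 14.52 in the array without dsRNA.

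The sex determination list had 7 of 10 with signal. In flies, Sxl is active as protein only in females, and its male transcript includes an exon that stops translation. The Sxl probe set read 9.45, 9.11 and 10.65 in the GST dsRNA arrays and 10.78 in the array without dsRNA, and its value does not tell the transcript forms apart. The downstream genes tra and tra2 read 7.11, 7.45 and 7.23 with GST dsRNA and 7.29 without dsRNA and 9.11, 9.19 and 8.11 with GST dsRNA and 8.20 without dsRNA. Also with signal were fl(2)d (mean 9.95) and vir (7.88), which act with Sxl in splicing, fru (6.88), a male behaviour gene, and ix (6.20), a partner of dsx. The gene dsx itself, the last switch of the pathway, had a mean of 2.41 and her one of 2.89, both below the limit, and dpn was at the floor.

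Dosage compensation genes had signal for 7 of 7 measured. The complex that some of them form raises transcription from the single male X chromosome. The RNA genes roX1 and roX2 of the list were not analysed. The male-specific subunit gene msl-2 read 9.71, 8.91 and 8.13 in the GST dsRNA arrays and 8.58 in the array without dsRNA. The helicase gene mle read 8.51, 8.03 and 9.31 with GST dsRNA and 9.44 without dsRNA, and the acetyltransferase gene mof 7.45, 6.60 and 6.45 with GST dsRNA and 6.47 without dsRNA. The scaffold and chromatin-binding subunit genes msl-1 and msl-3 had means of 7.69 and 7.29. Clamp, a zinc finger protein that recruits the complex, had 11.43, and the kinase gene JIL-1 6.73. The genes mof and msl-2 were brighter on the first GST array than on the third and without dsRNA. By contrast, mle, msl-1, msl-3 and JIL-1 were brighter on those arrays than on the first and second. Many genes outside this list split in that way. Of 1241 genes with signal and a range over 1 log2 unit, 616 were higher and 495 lower on both of those arrays.

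By chromosome, signal was found for 974 of 1869 X-linked genes (52.1%) and for 4713 of 9946 genes on chromosomes 2 and 3 (47.4%), with median levels of 8.54 on the X and 8.71 on chromosomes 2 and 3 among genes with signal. The small chromosome 4 had signal for 41 of 65 genes (63.1%). The 4 Y-linked genes measured, kl-2, ORY, Pp1-Y2 and Ppr-Y, which are known for a role in sperm, were all at the floor. These shares are described without a test.

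Signalling genes are first given by role. When the pathway genes were regrouped by role, a grouping made after their values were seen, 38 of 39 cytoplasmic transducers measured had signal. Of the 55 transducers listed, the others were not analysed. Transcription factors and nuclear receptors had 19 of 27, induced inhibitors 7 of 12, cell surface receptors 13 of 23 and secreted ligands 11 of 28. The share of 48.0% over all genes stands between those of the ligands (39.3%) and of the receptors (56.5%).

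Ligand genes with signal in the growth factor pathways included spi of the EGFR pathway at 12.97, 12.96 and 11.72 in the GST dsRNA arrays and 11.82 in the array without dsRNA, and the BMP ligand gene gbb at 10.42, 10.40 and 10.05 with GST dsRNA and 9.81 without dsRNA. In the PVR pathway, which supports blood cell survival in flies, the receptor gene Pvr read 12.96, 12.84 and 12.28 with GST dsRNA and 12.30 without dsRNA and its ligand gene Pvf2 10.00, 9.29 and 10.21 with GST dsRNA and 10.55 without dsRNA, while Pvf1 and Pvf3 were at the floor. Receptor and ligand of that pathway thus both had signal. The FGF ligand genes pyr and bnl had means of 9.28 and 7.67, and the FGF receptor gene btl, with the ligand gene ths, was at the floor. Of the 15 genes of this receptor tyrosine kinase list, 4 had signal.

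In the EGFR/Ras list 11 of 13 genes measured had signal (84.6%, against 48.0% of all genes). The listed genes vn, rho, Ras85D, Raf, rl and pnt were not analysed. The inhibitor sprouty, sty, read 13.59, 13.63 and 14.04 in the GST dsRNA arrays and 13.91 in the array without dsRNA, the repressor gene aop had a mean of 11.58 and the inhibitor gene kek1 9.44. Egfr, the receptor itself, named after its values were seen, read 3.31, 3.04 and 3.38 with GST dsRNA and 4.08 without dsRNA and thus passed 4 on the array without dsRNA alone. In the insulin and TOR list 8 of 13 had signal, S6k at 12.17, the receptor gene InR at 11.04, Pdk1 at 10.44 and Akt at 9.64, and the insulin-like peptide genes Ilp2, Ilp5, Ilp7 and Ilp8 were at the floor.

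Immune pathway lists had signal for most members. The Toll list had 7 of 9: the ligand gene spz read 13.12, 13.32 and 12.53 in the GST dsRNA arrays and 12.66 in the array without dsRNA, the receptor gene Tl 11.09, 10.81 and 10.15 with GST dsRNA and 10.40 without dsRNA, the inhibitor gene cact had a mean of 10.80 and the NF-kappaB factor gene dl 10.06. SPE, the protease that activates spz, was at the floor. The Imd list had 9 of 11, with the NF-kappaB factor gene Rel at 11.15, 11.14 and 12.03 with GST dsRNA and 11.71 without dsRNA and means of 11.14 for Diap2, 10.87 for key and 9.20 for Tab2. JAK/STAT had 7 of 9, with Stat92E at 12.56, 12.09 and 12.32 with GST dsRNA and 12.22 without dsRNA, et at a mean of 9.59, Ptp61F at 9.49 and Socs44A at 9.44. The cytokine genes upd1 and upd2 were at the floor. Listed genes not analysed were PGRP-SA, PGRP-SD and GNBP1 (Toll), PGRP-LC and Tak1 (Imd) and hop, upd3 and Socs36E (JAK/STAT).

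The stress kinase list (JNK and p38) had 12 of 13 with signal. Its ligand gene egr, the fly tumour necrosis factor, read 12.95, 13.10 and 12.36 in the GST dsRNA arrays and 12.15 in the array without dsRNA, and of its receptor genes wgn, named after its values were seen, read 10.14, 10.38 and 9.85 with GST dsRNA and 9.75 without dsRNA, while grnd was at the floor. The factor gene kay, fly Fos, had a mean of 12.07, the kinase gene msn 10.81 and the phosphatase gene puc, an induced inhibitor, 10.71. The integrin adhesion list had 9 of 12, with stck at 11.38, the beta chain gene mys at 11.05, the talin gene rhea at 11.03 and the alpha chain gene mew at 10.83, and the alpha chain genes if and ItgaPS5 at the floor.

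Among the patterning pathways, Hedgehog had signal for 9 of 11 genes, with the co-receptor gene boi at 9.54, slmb at 9.24, the kinesin-like gene cos at 9.13 and the transducer gene smo at 8.78, and with the ligand gene hh at the floor. Its receptor and target gene ptc, named after its values were seen, read 3.64, 3.73 and 2.65 in the GST dsRNA arrays and 2.49 in the array without dsRNA. BMP and activin genes had signal for 11 of 18, shn at 11.23 and the receptor genes put at 10.81 and sax at 10.75 among them, and scw, Actbeta, wit and Med were at the floor. Notch had 8 of 11 measured, with the protease genes kuz at 10.52 and Psn at 10.33. The co-repressor gene H had a mean of 10.06 and the target gene E(spl)mbeta-HLH 9.04, and E(spl)m7-HLH was at the floor. The receptor gene N, the ligand genes Dl and Ser and the gene Su(H) were among the listed Notch genes not analysed. Hippo had 8 of 10, with wts at 10.13, yki at 10.11, hpo at 9.14 and ex at 8.63, and with ds and fj at the floor. Of 24 Wnt genes listed only 5 were analysed here, so the pathway is not described beyond wls (10.62), Axn (9.67) and por (6.38) with signal and Wnt6 and nkd at the floor.

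The ecdysone list had signal for 7 of 19 genes, among them the nuclear receptor genes ftz-f1 at 10.72, usp at 9.45 and Hr39 at 8.71 and the early gene br at 9.36. EcR, the hormone receptor, named after its values were seen, read 6.46, 6.07 and 5.82 in the GST dsRNA arrays and 6.19 in the array without dsRNA. The enzyme genes of hormone synthesis nvd, spo, spok and dib were at the floor.

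**Figure D4:**
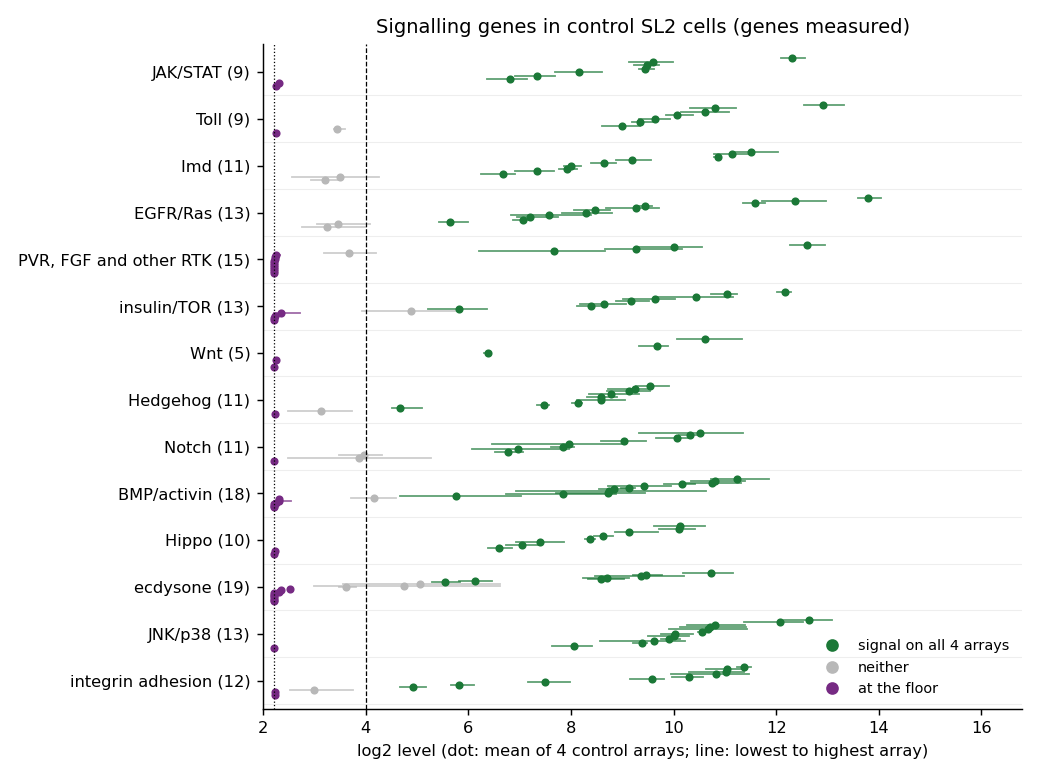
Log2 level of each measured signalling gene by pathway (dots, mean of the 4 control arrays; lines, lowest to highest array), coloured by signal, neither or floor; the dashed line is the limit of 4 for signal, the dotted line the lowest table value, and the number measured is beside each pathway. The stress kinase list has 12 of 13 genes with signal, and the list of PVR, FGF and other receptor tyrosine kinases has 4 of 15.

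The lists of RNA interference, cell cycle, glycolysis and translation elongation genes had signal for most members. The RNA interference list also holds genes of small RNA pathways other than the one that dsRNA triggers. It had 13 of 13 measured, with gw at 11.57, armi at 9.16, aub at 9.14 and piwi at 9.11. Dcr-2 and r2d2 of the dsRNA pathway, named after their values were seen, had means of 8.83 and 7.76. The listed genes Dcr-1, AGO1 and AGO2 were not analysed. Cell cycle genes had 14 of 15, led by the replication clamp gene PCNA at 10.67, 10.89 and 10.98 in the GST dsRNA arrays and 10.86 in the array without dsRNA and RnrL, a subunit of ribonucleotide reductase, at 10.71, 10.70 and 10.91 with GST dsRNA and 10.95 without dsRNA. The cyclin gene CycB had a mean of 10.30 and the repressor gene E2f2 9.70. Glycolysis had 9 of 11, with Eno at 12.76, Ald1 at 12.71, Tpi at 12.21 and Gapdh1 at 11.55, and the copies Hex-C and Pglym87 at the floor. Translation elongation had 3 of 4, eEF5, eEF1gamma and, at 12.81, eEF1delta. The listed genes eEF1alpha1, eEF1beta and eEF2 were not analysed. Also not analysed were Gapdh2, PyK and Ldh of the glycolysis list and cell cycle genes such as CycA, Cdk1 and stg.

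Actin and tubulin genes were read in part, since 13 of the 22 cytoskeleton genes listed were measured. Act5C, Act42A, Act57B, alphaTub84B, gammaTub23C, zip, sqh, Lam and LamC were not analysed. The share with signal is that of the remaining members and not of the whole list. In the cytoskeleton list 5 of 13 had signal (38.5%, against 48.0% of all genes), the profilin gene chic at a mean of 14.30, betaTub56D at 13.75, 13.66 and 14.43 in the GST dsRNA arrays and 14.35 in the array without dsRNA, betaTub97EF at a mean of 11.51 and betaTub60D at 7.40, besides tsr. The muscle actin genes Act79B, Act87E and Act88F and the maternal tubulin gene alphaTub67C were at the floor.

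The control arrays were not alike. The third GST array and the array without dsRNA differed by more than 2-fold at 28 of 11983 genes, while each of them differed from the first and second GST arrays at 843 to 1136 genes. The first and second GST arrays differed from each other at 253. Over genes with signal, the correlation across genes was 0.995 between the third GST array and the array without dsRNA, and 0.933 to 0.943 between either of them and the other GST arrays. Genes are not independent replicates, and these correlations are descriptions.

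Among the 5746 genes with signal, 1241 (21.6%) had a range over 1 log2 unit across the 4 arrays, and 180 (3.13%) one over 2 units. Of the 1241, 616 were higher and 495 lower on both the third GST array and the array without dsRNA than on the first and second GST arrays. Some control probe sets moved the same way. The signal of 3′ probes exceeded that of 5′ probes of the actin control by 0.556, 1.16 and 2.84 log2 units in the GST arrays and by 2.77 without dsRNA, and for the GAPDH control by 0.533, 0.634 and 1.95 in the GST arrays and by 2.11 without dsRNA. The median of the poly-A spike-in controls was 5.45, 4.71 and 7.42 in the GST arrays and 7.99 without dsRNA. The part of RNA integrity or labelling in these differences was not tested. The median of the hybridisation controls, 10.7, 13.1 and 10.8 in the GST arrays and 10.2 without dsRNA, stood apart on the second GST array instead. The median of the 18S ribosomal RNA controls, 7.62, 10.39 and 9.56 in the GST arrays and 7.51 without dsRNA, did not follow the split either, since the first GST array lay closest to the array without dsRNA.

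PPO1, described above, was among the 12 genes with the largest ranges once loci known only by a CG number were set aside. Of those loci, CG8620, CG12065 and CG34330, named here after their values were seen, had signal and ranges of 5.93, 5.08 and 4.70. Lon, a mitochondrial protease gene, read 5.27, 10.37 and 5.68 in the GST dsRNA arrays and 4.89 in the array without dsRNA, high on the second GST array alone. The gene trio read 5.35, 4.27 and 8.95 with GST dsRNA and 8.41 without dsRNA, and GstD7, a glutathione S-transferase gene, 5.83, 5.76 and 10.20 with GST dsRNA and 10.28 without dsRNA. RapGAP1 read 5.24, 4.49 and 8.79 with GST dsRNA and 8.88 without dsRNA, toc 5.57, 4.01 and 7.82 with GST dsRNA and 8.32 without dsRNA, and hng3 4.26, 4.46 and 8.48 with GST dsRNA and 8.41 without dsRNA. These 5 genes, and also 14-3-3zeta at 6.32, 4.85 and 8.89 with GST dsRNA and 8.91 without dsRNA and Wdr33 at 6.84, 5.26 and 8.49 with GST dsRNA and 8.61 without dsRNA, were high on the third GST array and without dsRNA. The activin ligand gene daw went the other way, at 10.50, 10.64 and 6.92 in the GST dsRNA arrays and 6.94 in the array without dsRNA, as did stol at 7.94, 7.67 and 4.86 with GST dsRNA and 4.64 without dsRNA, a calcium channel subunit gene. IP3K1, an inositol phosphate kinase gene, read 7.22, 10.55 and 9.81 with GST dsRNA and 9.19 without dsRNA and was low on the first GST array.

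Heat shock genes were among those that differed. Hsp68, an inducible chaperone gene, read 9.64, 9.90 and 12.85 in the GST dsRNA arrays and 12.86 in the array without dsRNA, and the small chaperone genes Hsp26 and Hsp27 read 11.82, 11.95 and 13.33 with GST dsRNA and 13.32 without dsRNA and 11.41, 11.50 and 13.23 with GST dsRNA and 13.41 without dsRNA. In the same direction, and chosen after their values were seen, DnaJ-1 read 13.19, 12.96 and 14.14 with GST dsRNA and 14.19 without dsRNA and stv, a co-chaperone gene, 8.55, 8.44 and 11.39 with GST dsRNA and 11.69 without dsRNA. Hsp60A, the chaperone of mitochondria, was lower on the third GST array and without dsRNA, at 12.73, 12.73 and 12.07 with GST dsRNA and 12.06 without dsRNA. The heat shock factor gene Hsf read 10.13, 9.67 and 9.78 with GST dsRNA and 9.71 without dsRNA, a range under 0.5.

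**Figure D5:**
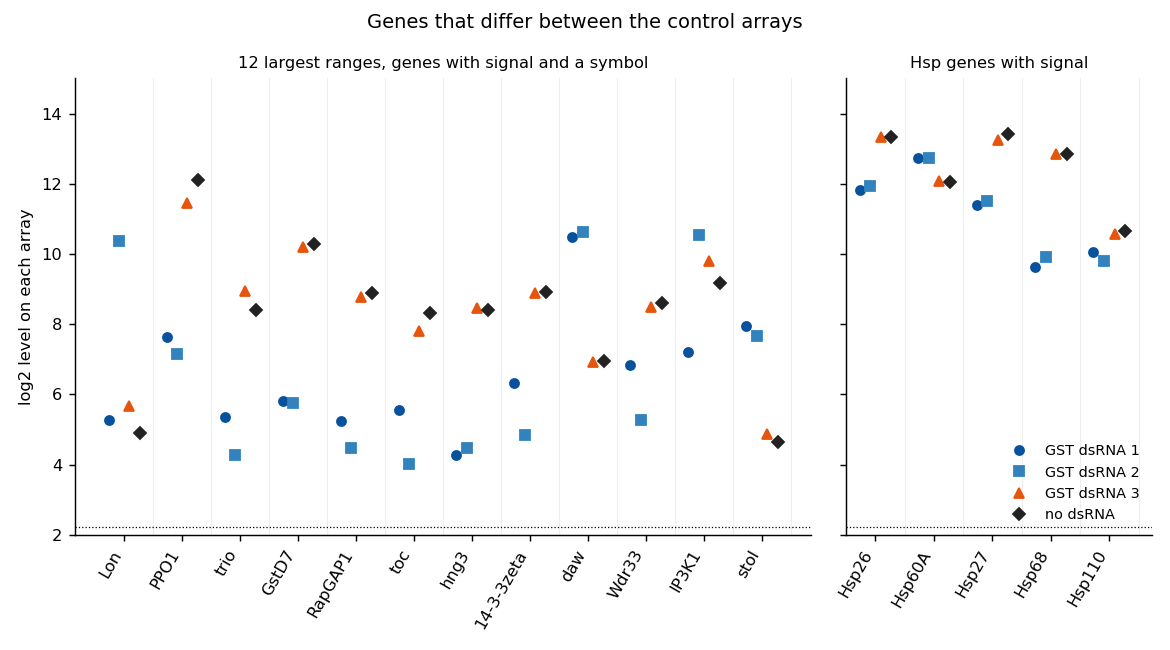
Log2 level on each control array (vertical axis) for the 12 genes with the largest range among genes with signal and a symbol other than a CG number (left) and for the 5 Hsp genes with signal (right); each symbol is 1 array, with the 3 GST dsRNA arrays left of the array without dsRNA, and the dotted line is the lowest table value. For most genes the third GST array (triangles) lies next to the array without dsRNA (diamonds) and apart from the first and second GST arrays.

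The comparison of GST dsRNA with no dsRNA asks what exposure to dsRNA does by itself. In limma's test of the 3 GST arrays against the 1 array without dsRNA, 0 of 7315 probe sets passed an adjusted p of 0.05 in either direction (0.0% higher and 0.0% lower), and 24 had an unadjusted p under 0.05. The lowest adjusted p was 0.917. The median half-width of the 95% confidence interval of a difference was 0.95 log2 units. The lone array was assumed to vary like the GST arrays. On simulated data with 3 arrays against 1, this test recovered 3.8% of changes of 2 log2 units and 68.6% of those of 4. The simulated arrays varied independently, whereas the third GST array lay close to the array without dsRNA. The recovered shares therefore hold for the simulated setting and not for these arrays. In that setting most changes of 2 log2 units were missed, and 0 calls do not show that dsRNA exposure changes few genes.

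The largest differences in which the array without dsRNA lay outside the range of the GST arrays are given as values, since none passed. That array lay outside the range for 2737 of 5951 genes with a mean of at least 4, so this feature is common. Lower with GST dsRNA were the locus CG8620 (difference -3.90 ± 2.60 log2 units, SE), PPO1 (-3.37 ± 1.87), Oatp30B, an organic anion transporter gene (-3.02 ± 1.67), GstD7 (-3.02 ± 2.02) and lz (-2.97 ± 1.47). CG8620 had 7.11 ± 3.29 (SD, n = 3) with GST dsRNA and 11.01 without dsRNA, and its value on the third GST array, 10.91, lay close to that without dsRNA. Higher with GST dsRNA were CG12065 (3.60 ± 1.79), CG34330 (3.27 ± 1.94), CG4793 (3.13 ± 1.67), M6, a membrane proteolipid gene (3.10 ± 1.58), and CG33272 (2.40 ± 1.49). CG12065 had 8.97 ± 2.25 (SD, n = 3) with GST dsRNA and 5.37 without dsRNA. When the third GST array alone was set against the array without dsRNA, the same 10 differences lay between -0.85 and 1.01.

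That pair of arrays differed little across genes of either direction. Of 5951 genes with a mean of at least 4, 7 were over 2-fold higher and 5 over 2-fold lower on the third GST array than without dsRNA. Vago, an antiviral factor of the fly, chosen here after its values were seen, read 8.84, 8.62 and 7.07 in the GST dsRNA arrays and 5.78 in the array without dsRNA. Without the third GST array the fit of the other GST arrays gave 1874 of 7295 probe sets at an unadjusted p under 0.05, with none past the adjusted threshold and a lowest adjusted p of 0.0652.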

How the data were processed

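RNA of SL2 cells was hybridised to Affymetrix arrays, 1 per sample, and 4 of 10 arrays were used. The authors deposited 1 log2 value per probe set and array, made with GCRMA per the submitters' processing notes, a method that corrects background by probe composition, normalises arrays together and summarises probes. The notes used here give no version or setting for it. Such background correction puts dim probe sets at a common lowest value, so differences near it are not measurable. Samples were grouped by source name.

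Of 18952 probe sets, 183 controls were left out, 13647 name 1 gene in the platform annotation, 402 several and 4720 none. RefSeq (Release 6) matched 13544 by Entrez identifier and gave symbols, chromosomes and lengths. For 1094 genes with several probe sets the one with the highest mean over the 4 arrays was used. In 185 of these another probe set was at the floor while that one had signal. Of 529 listed symbols, 129 were not analysed here.

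GST dsRNA minus no dsRNA was tested with limma 3.58.1 (R 4.3.3) on 7315 probe sets with a mean of at least 4, two-sided, with Benjamini-Hochberg adjustment and a threshold of 0.05. The code was tested on simulated data. All other results are descriptions. Figures were drawn with matplotlib 3.10.9 in Python 3.11.15. Members, lists and the rule for named genes were chosen with earlier results of these data known, and symbol patterns of 3 families were corrected after seeing their members. The rule names the 20 brightest genes with a symbol that are not cytosolic ribosomal proteins, up to 5 or otherwise the 4 brightest members with signal and up to 4 floor members of each list, the 12 largest ranges, the 5 largest differences each way, and all Hox, sex determination and dosage compensation genes. Genes named outside it include the family members and are marked where first described. A planned search for core promoter elements was not run, since no promoter sequences were used here.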

Additional observations from a re-analysis of the deposited data

How the results depend on the processing

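Under every alternative run, the numbers of genes with signal (4929 to 6086), at the floor (4684 to 5650) and with a mean of at least 12 (341 to 381) stayed within 1.5 times the reported counts. The alternatives were a signal limit of 3 or 6, a floor margin of 0.1 or 1, the mean of a gene's probe sets, quantile normalisation, centring on the median or on the hybridisation spike-in controls, and leaving out each array. Centring shifts each array by a constant, keeps each gene's mean over the arrays, and takes the floor from each array's own lowest value. The counts at the floor and with a mean of at least 12 therefore could not change under centring, which says nothing about their stability. Leaving out 1 array gave 5759 to 5808 genes with signal, 5430 to 5482 at the floor, 359 to 381 with a mean of at least 12, and 0 probe sets called in limma's test of GST dsRNA minus no dsRNA. Spike-in centring shifted the median of these differences to -1.38 log2 units, with 0 called, and left 5135 genes with signal. Without the filter on low values, 414 of 18769 probe sets passed the test (49 higher, 365 lower), 406 of them with a mean under 4 and 0 by more than 2-fold, and the lowest adjusted p over the alternatives was then 7.86e-05. In the other alternatives 0 passed and the lowest adjusted p ran from 0.0652 to 1. With a limit of 6, 12 of 81 cytochromes P450, 8 of 13 RNA interference genes and 3 of 9 female germline genes had signal. The neuron list then had 1 of 14 and the male germline list 0 of 11. Counts of 31 families and 40 lists at that limit stayed within 1.5 times for 23 and 36. No paired analysis was possible because the array without dsRNA is alone in its group. Signal near the floor limits what dim genes can show.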

Other observations

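Probe sets without a gene name in the annotation used here also carried signal. Of 4720 such probe sets, 688 (14.6%) had signal on all 4 control arrays and 126 had a mean of at least 12, while 3800 (80.5%) were at the floor. Among the 820 named genes that were neither with signal nor at the floor, and chosen after their values were seen, corto, a chromatin protein gene, read 4.53, 3.88 and 8.41 in the GST dsRNA arrays and 8.03 in the array without dsRNA, and Pdzd8 read 4.66, 3.70 and 7.44 with GST dsRNA and 7.94 without dsRNA, both higher on the third GST array and without dsRNA than on the first and second GST arrays.

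Imaginal disc growth factors, secreted chitinase-like proteins, were bright beyond Idgf2, in a group noticed after the values were seen. Idgf6 read 14.45, 14.34 and 14.51 in the GST dsRNA arrays and 14.26 in the array without dsRNA, Idgf3 13.69, 13.61 and 13.65 with GST dsRNA and 13.55 without dsRNA and Idgf1 13.87, 13.79 and 13.47 with GST dsRNA and 13.31 without dsRNA. Further genes chosen in the same way follow. The laminin chain gene LanA, a further basement membrane component, read 14.06, 13.83 and 13.61 with GST dsRNA and 13.53 without dsRNA, and Glt, the glutactin gene of basement membranes, 13.87, 13.76 and 13.74 with GST dsRNA and 13.58 without dsRNA. The ferritin heavy chain gene Fer1HCH read 14.49, 14.49 and 13.57 with GST dsRNA and 13.44 without dsRNA, lower on the third GST array and without dsRNA than on the first and second GST arrays.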
